A study of Homo sapiens with 2 samples.

Results

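The genes described here encode the chaperones of the cytosol and of the endoplasmic reticulum (ER), with their partners in mitochondria and their transcriptional regulators. They were chosen by name alone, as protein-coding genes whose symbols mark the HSP70, HSP90, HSP110, HSP60 and small heat-shock families, the J proteins, the chaperonin TRiC/CCT, the protein disulfide isomerases, and a set of named ER stress genes, heat-shock factors and BAG proteins. Of the 22965 gene IDs listed, 102 were members, and 95 of these averaged 10 counts or more over both libraries. The other 7 are given at the end by their counts. IFT25, which once had the symbol HSPB11, was not counted as a member.

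Counts came from 2 RNA-seq libraries of H460, a line of human large-cell lung carcinoma that was grown in DMEM with serum. The PKP2 library came from cells in which the pSin-puro vector delivered PKP2, the gene of the desmosomal plaque protein plakophilin 2, and the other from cells carrying the vector and labelled control. Both cultures were at passage 5, and the labels give neither the promoter that drives PKP2 nor whether the cells were a clone or a pool. The PKP2 library held 20319137 counts and the vector library 23513304, and PKP2 itself had 1330 counts in the PKP2 library, against 181 in the vector library. Each group has 1 library, so differences have no replicate check and cannot be tested. A gene is therefore described by its log2 ratio, PKP2 library over vector library, of CPM (counts relative to the scaled library size), with a 95% interval that covers counting error only.

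Chaperones hold unfolded or misfolded proteins until they fold, move or are destroyed. In the cytosol HSP70 proteins take up a chain with the help of J proteins, which start their ATP hydrolysis. Exchange factors such as HSP110 and BAG proteins then strip the spent nucleotide from HSP70. Some clients pass on to HSP90 or to the barrel of TRiC. Heat-shock factor 1, encoded by HSF1, drives the inducible members of this set when unfolded protein builds up. The ER has its own HSP70 (BiP, the product of HSPA5) and HSP90 (GRP94, the product of HSP90B1), with disulfide isomerases and sugar-reading lectins. Stress there is sensed by IRE1 (the product of ERN1) and ATF6, which act through the transcription factor XBP1 and through cleaved ATF6. These factors bind the ER stress element (ERSE), a CCAAT box and a CCACG box set 9 bases apart, while HSF1 binds repeats of a GAA unit and its complement.

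RefSeq promoters (build GRCh38.p14; 250 bases before to 50 after each start) were in hand for 92 of the 102 members, and 23 of these had more than 1. Matches were sought on both strands, so that some appear as the reverse complement of the letters given. The ERSE, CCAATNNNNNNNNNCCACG, was found in promoters of 7 of the 92 members, and in 0.0916% of all 27305 genes of that table. All 7 encode ER chaperones, an ER stress-induced protein or XBP1. The stretches before the start that hold it are shown because they are the DNA through which the ER stress factors are known to act; each is read 5′ to 3′ on the gene's strand, capitals mark the match, and lower case the 20 bases on either side and, in HSP90B1, those between its matches.
HSPA5 (chr9:125241371-125241429, minus strand): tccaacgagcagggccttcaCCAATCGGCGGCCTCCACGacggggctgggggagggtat
HSP90B1 (chr12:103930196-103930359, plus strand): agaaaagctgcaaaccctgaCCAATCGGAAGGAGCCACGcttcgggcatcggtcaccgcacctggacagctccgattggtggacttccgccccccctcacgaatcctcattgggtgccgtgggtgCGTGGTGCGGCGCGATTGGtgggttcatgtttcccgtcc
CALR (chr19:12938364-12938422, plus strand): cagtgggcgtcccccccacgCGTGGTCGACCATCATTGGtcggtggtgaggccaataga
CANX (chr5:179698758-179698816, plus strand): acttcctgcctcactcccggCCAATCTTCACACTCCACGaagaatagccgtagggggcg
PDIA6 (chr2:10812833-10812891, minus strand): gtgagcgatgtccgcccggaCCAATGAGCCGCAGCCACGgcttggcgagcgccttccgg
CRELD2 (chr22:49918534-49918592, plus strand): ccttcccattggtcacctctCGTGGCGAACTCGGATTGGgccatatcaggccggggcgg
XBP1 (chr22:28800583-28800641, minus strand): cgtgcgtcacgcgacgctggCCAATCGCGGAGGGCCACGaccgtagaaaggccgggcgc

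The shorter element bound by XBP1, TGACGTGG, was found in 2 members, HYOU1 and DNAJC10, and in 0.927% of all genes. Its last 5 letters are the CCACG box of the ERSE read on the other strand. Both genes appear again below among the members with higher ratios, so their stretches are shown with the match in capitals.
HYOU1 (chr11:119057366-119057413, minus strand): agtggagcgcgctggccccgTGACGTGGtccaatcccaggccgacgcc
DNAJC10 (chr2:182716112-182716159, plus strand): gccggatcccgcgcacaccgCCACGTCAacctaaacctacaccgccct

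A heat-shock element of 3 units, GAANNTTCNNGAA, was found in 7 members (DNAJA1, DNAJB6, HSP90AA1, HSP90AB1, HSPA6, HSPA8 and HSPD1) and in 0.608% of all genes. Its core of 2 units, TTCNNGAA, was found in 16 members and in 9.46% of all genes; every match to the longer element holds one to the core. The elements of the 4 most abundant of these genes are shown with matches in capitals, which in HSPD1 overlap and lie near the edge of the window. That gene lies head to head with HSPE1, the gene of its co-chaperonin.
HSP90AA1 (chr14:102087100-102087152, minus strand): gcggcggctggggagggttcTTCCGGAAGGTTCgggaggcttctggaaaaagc
HSP90AB1 (chr6:44247758-44247863, plus strand): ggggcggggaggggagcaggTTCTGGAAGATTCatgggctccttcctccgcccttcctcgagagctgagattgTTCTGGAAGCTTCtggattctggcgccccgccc
HSPA8 (chr11:123062159-123062386, minus strand): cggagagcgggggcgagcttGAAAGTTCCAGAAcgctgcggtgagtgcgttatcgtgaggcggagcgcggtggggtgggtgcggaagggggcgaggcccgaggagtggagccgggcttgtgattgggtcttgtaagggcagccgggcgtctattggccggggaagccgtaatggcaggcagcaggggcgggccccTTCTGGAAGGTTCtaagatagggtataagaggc
HSPD1 (chr2:197500048-197500090, minus strand): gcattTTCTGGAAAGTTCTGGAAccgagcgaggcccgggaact

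Chaperone genes as a set differed little between the libraries. Of the 95 members at or above that minimum, none was higher by 2-fold or more in the PKP2 library, where 2.47% of the 15991 such genes were. SDF2L1 and PDIA2 were lower by 2-fold or more, as were 4.61% of all genes. PDIA2 had only 5 counts in the PKP2 library, against 18, and passed the minimum only through the vector library. At 1.5-fold, 1 member was higher (DNAJC10; 6.87% of all genes), and HSPBP1 and HSPA6 joined the lower ones to make 4 (12.9% of all genes). The members' median ratio was 0.05, with 56 above 0 (47.3% of all genes) and 39 below, and the median of all genes was -0.03. The middle 50% of members lay between -0.18 and 0.18, and that of all genes between -0.33 and 0.22. Members had a median of 1888 counts, against 428.5 for all genes. Among genes that averaged 1000 counts or more, the middle 50% of the 59 members spanned 0.25, against 0.38 for all 4845 such genes. Ratios above 0 were also more common at these counts. They were found in 2805 of the 4845 (median 0.06) and in 42 of the 59 (median 0.07). Of the 4845, only 50 were higher and 41 lower by 2-fold or more, and none of the 59 members was either. At 1.5-fold, 193 of the 4845 were higher and 174 lower, against 1 and 0 of the 59.

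Many small differences were still larger than counting error. Of the 95 members, 41 had an interval wholly above 0 (25.9% of all genes) and 29 wholly below (28.8% of all genes). Of the 59 members that averaged 1000 counts or more, 34 had an interval wholly above 0 (46.9% of such genes) and 14 wholly below (32.0% of such genes), and 11 had an interval that took in 0. Counting error is not the spread between cultures, which these libraries cannot give.

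The ratio also went down with the GC content of the transcript, among members (Spearman's rho -0.61 over 89 members averaging 100 counts or more) as among all 11610 such genes (rho -0.61). These points share 2 libraries, and genes are not independent replicates. The 29 members with the lowest GC content (33.1% to 43.0%) had a median ratio of 0.19 with 4 below 0, and the 29 with the highest (51.8% to 65.5%) a median of -0.18 with 24 below 0. A second value is therefore given beside the ratio, the GC-adjusted ratio, from which the trend over all well-counted genes was subtracted. After it the medians of those groups were 0.02 and -0.02. The GC-adjusted median of all members was 0.01, with 50 of 95 above 0 (48.9% of all genes). Past 2-fold was 1 member, the scarce PDIA2, against 5.85% of all genes in either direction. Which part of a ratio belongs to GC content was not tested.

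**Figure D1:**
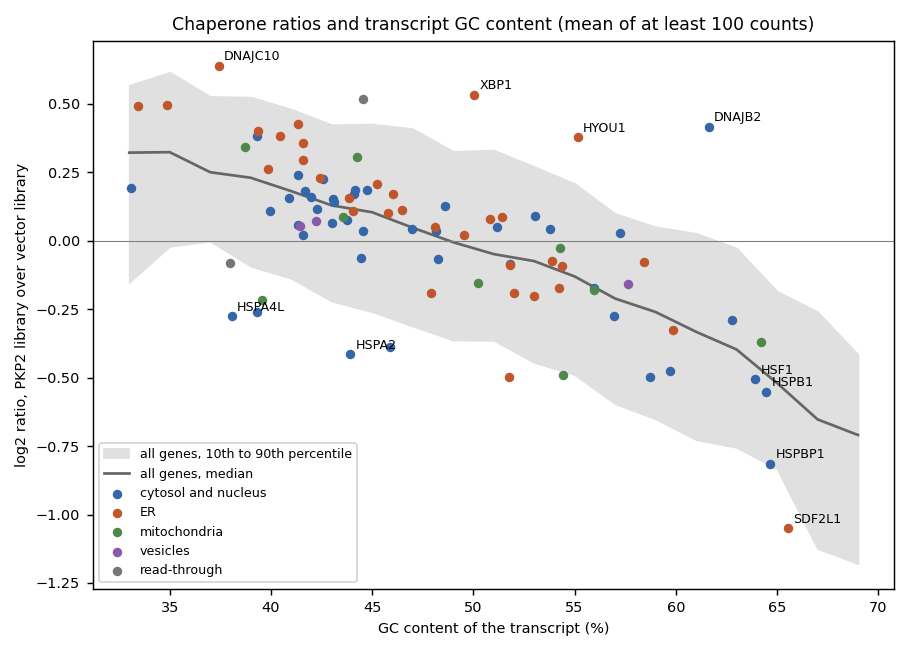
Log2 ratio (PKP2 library over vector library) against the GC content of the transcript in percent, for the 89 chaperone genes that averaged 100 counts or more. Coloured points are members by compartment, the grey line is the median and the grey band the 10th to 90th percentile of all such genes in steps of GC content. The points go down with the grey line; XBP1, HYOU1, DNAJB2 and DNAJC10 are among those above the band, and HSPA4L and HSPA2 among those below it.

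By compartment, the 34 ER members had a median ratio of 0.10, with 22 above 0, the 46 measured members of cytosol and nucleus a median of 0.04, with 27 above 0, and the 10 mitochondrial members a median of -0.09, with 4 above 0. Of all genes 47.3% were above 0, and of those that averaged 1000 counts or more 2805 of 4845. GC-adjusted, the medians of the 3 compartments were 0.06, -0.03 and 0.05. Summed, ER members took 9676 CPM in the PKP2 library, against 8568 in the vector library, cytosolic and nuclear members 17077 CPM in the PKP2 library, against 16493, and mitochondrial members 3931 CPM in the PKP2 library, against 3485. The log2 ratios of these sums were 0.18, 0.05 and 0.17, so the mitochondrial sum, most of which is HSPD1 and HSPA9, and the mitochondrial median had opposite signs. Each compartment's members lay on both sides of 0, and the ranges of all 3 overlapped widely.

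**Figure D2:**
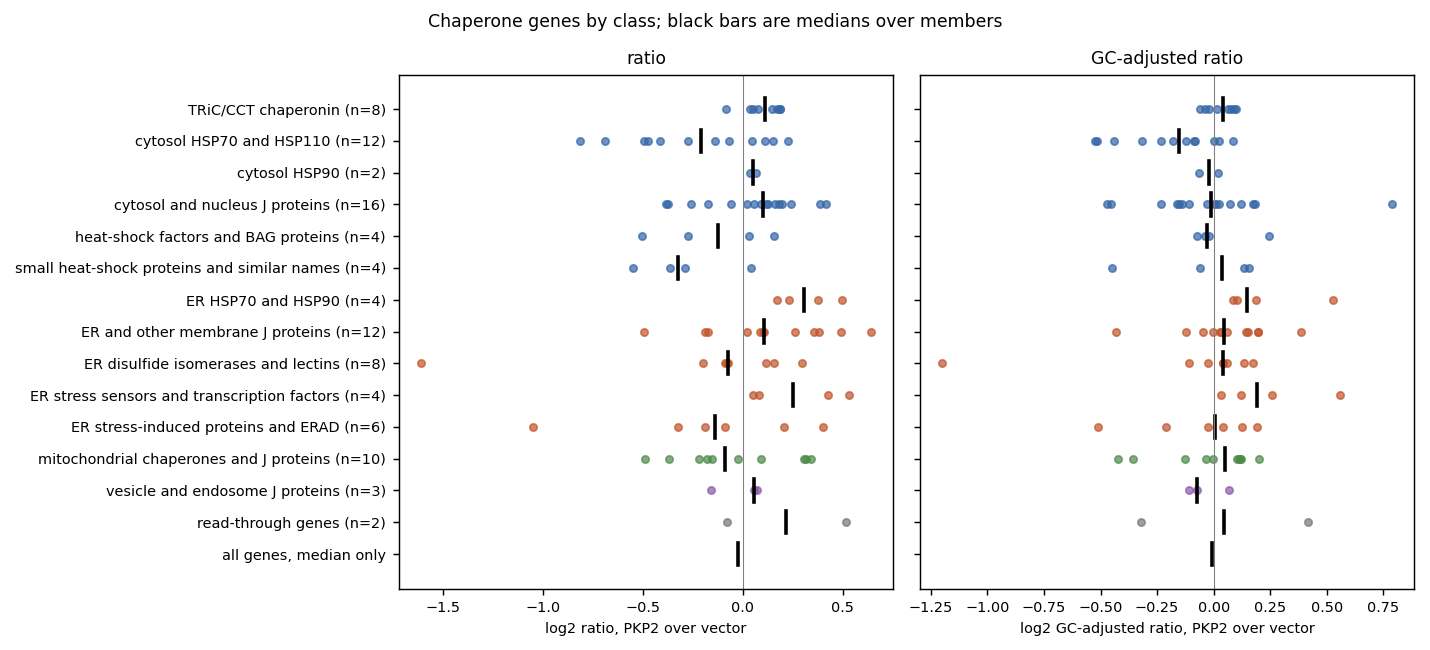
Log2 ratio (left) and GC-adjusted log2 ratio (right), PKP2 library over vector library, of the 95 members that averaged 10 counts or more. Each point is a gene, coloured by compartment, black bars are class medians, and the lowest row gives the median of all genes. All 4 ER HSP70 and HSP90 genes and all 4 ER stress sensors and factors lay above 0 in both panels. Of all genes 47.3% and 48.9% did. Cytosolic HSP70 and HSP110 genes had medians of -0.21 and -0.15.

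The 4 HSP70 and HSP90 chaperones of the ER were all higher in the PKP2 library. Each averaged more than 1000 counts and had an interval wholly above 0, as did 46.9% of all genes with such counts. HSPA5 (ENSG00000044574), which encodes BiP, had 33941 counts in the PKP2 library, against 35524 in the larger vector library, or 1686 CPM against 1497, a ratio of 0.17 (interval 0.15 to 0.19). HSP90B1 (ENSG00000166598), which encodes GRP94, had 1088 CPM in the PKP2 library, against 928, a ratio of 0.23 (interval 0.20 to 0.26). HYOU1 (ENSG00000149428), the large HSP70-like exchange factor of BiP, had 312 CPM in the PKP2 library, against 240, a ratio of 0.38 (interval 0.33 to 0.43). HSPA13, a small HSP70-like protein of microsomes, had 73.8 CPM in the PKP2 library, against 52.3, a ratio of 0.50 (interval 0.39 to 0.61). Adjusted for GC content, HSPA5 was at 0.11, HSP90B1 at 0.09 and HSPA13 at 0.19, while HYOU1, whose transcript has 55.2% GC, was at 0.53.

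The 4 members among the stress sensors and factors also had ratios above 0, as did 47.3% of all genes. The intervals of ERN1 and CREB3L2 took in 0. XBP1 (ENSG00000100219), whose mRNA is spliced by IRE1 to encode the active factor, had 1572 counts in the PKP2 library, against 1280 in the vector library, a ratio of 0.53 (interval 0.43 to 0.64). Its GC-adjusted ratio was 0.56, and gene counts cannot tell spliced from unspliced XBP1. ATF6, the membrane-bound factor that is cleaved under stress, had 4685 counts in the PKP2 library, against 4111, a ratio of 0.43 (interval 0.36 to 0.49) and 0.26 GC-adjusted. ERN1, which encodes IRE1, had 429 counts in the PKP2 library, against 478, a ratio of 0.08 (interval -0.11 to 0.27) that counting error covers. CREB3L2, a relative of ATF6 that acts on secretory genes, had a ratio of 0.05 (interval -0.04 to 0.13).

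Genes that are known to be induced by ER stress went both ways. SDF2L1 (ENSG00000128228), an ER protein that works with BiP and the J protein of DNAJB11, had 286 counts in the PKP2 library, against 698 in the vector library, or 14.2 CPM against 29.4. It was 2.07-fold lower, a ratio of -1.05 (interval -1.25 to -0.85), the lowest among members with at least 100 counts. It shares none of its 31-base stretches with another listed gene and overlaps none. Its transcript has the highest GC content of all members, 65.5%, and its GC-adjusted ratio was -0.51. CRELD2, a stress-inducible protein of the ER, had 31.2 CPM in the PKP2 library, against 39.2, a ratio of -0.33 (interval -0.47 to -0.18) and -0.03 GC-adjusted. HERPUD1, a membrane protein of ER-associated degradation (ERAD), was at -0.19 (interval -0.32 to -0.05) and -0.21 GC-adjusted, and MANF, a secreted stress protein of the ER, at -0.09 (interval -0.18 to -0.01) and 0.04 GC-adjusted. The ERAD genes SEL1L, the scaffold of the ubiquitin ligase HRD1, and EDEM1, which trims sugars of misfolded proteins, were higher, at 0.40 (4166 counts in the PKP2 library, against 3719) and 0.21 (1339 counts, against 1367). GC-adjusted, SEL1L and EDEM1 were at 0.19 and 0.12. The median ratio of the 6 genes of this class was -0.14, and 0.01 GC-adjusted.

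The disulfide isomerases and lectins lay on both sides of 0, and all but the scarce PDIA2 were between -0.20 and 0.29. CANX (ENSG00000127022), the membrane lectin calnexin, had 46867 counts in the PKP2 library, against 45042 in the vector library, or 2327 CPM against 1898, a ratio of 0.29 (interval 0.28 to 0.31) and 0.13 GC-adjusted. CALR, its soluble relative calreticulin, had 489 CPM in the PKP2 library, against 515, a ratio of -0.08 (interval -0.11 to -0.04) and 0.04 GC-adjusted. The isomerase genes PDIA3 (0.16) and PDIA6 (0.11) were higher and P4HB (-0.08) and PDIA4 (-0.20; interval -0.24 to -0.16) lower, and PDIA5 was at -0.09 with an interval that took in 0. PDIA3 and PDIA6 have 36.8% and 23.7% of their 31-base stretches in common with other listed genes, which makes their counts less certain. PDIA2, an isomerase of the pancreas, had only 5 counts in the PKP2 library, against 18 in the vector library. Its ratio of -1.61 has an interval of -3.40 to -0.13, and it passed the minimum only through the vector library.

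Of the 12 J proteins of the ER and other membranes, 9 had ratios above 0, and 5 of these an interval wholly above 0, which 25.9% of all genes had. DNAJC10 (ENSG00000077232), the disulfide reductase ERdj5, had 5683 counts in the PKP2 library, against 4297 in the vector library, or 282 CPM against 181. Its ratio of 0.64 (interval 0.58 to 0.70; 1.56-fold) was the highest among all members with at least 10 counts, and it was 0.39 GC-adjusted. DNAJB14, a J protein of the ER membrane, followed at 0.49 (interval 0.36 to 0.62), and 0.15 GC-adjusted. DNAJB9 (ERdj4), which represses IRE1, was at 0.38 (272 counts in the PKP2 library, against 246), DNAJC25 at 0.36 and DNAJC3, the BiP partner and PERK inhibitor p58IPK, at 0.26. DNAJB11 (ERdj3), a major BiP partner, was at 0.02 (interval -0.06 to 0.10). DNAJC22, a J protein with several membrane spans whose place in the ER is less sure, was the lowest at -0.50 (160 counts in the PKP2 library, against 266), and DNAJC14 was at -0.19 but has 57.9% of its 31-base stretches in common with other genes.

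**Figure D3:**
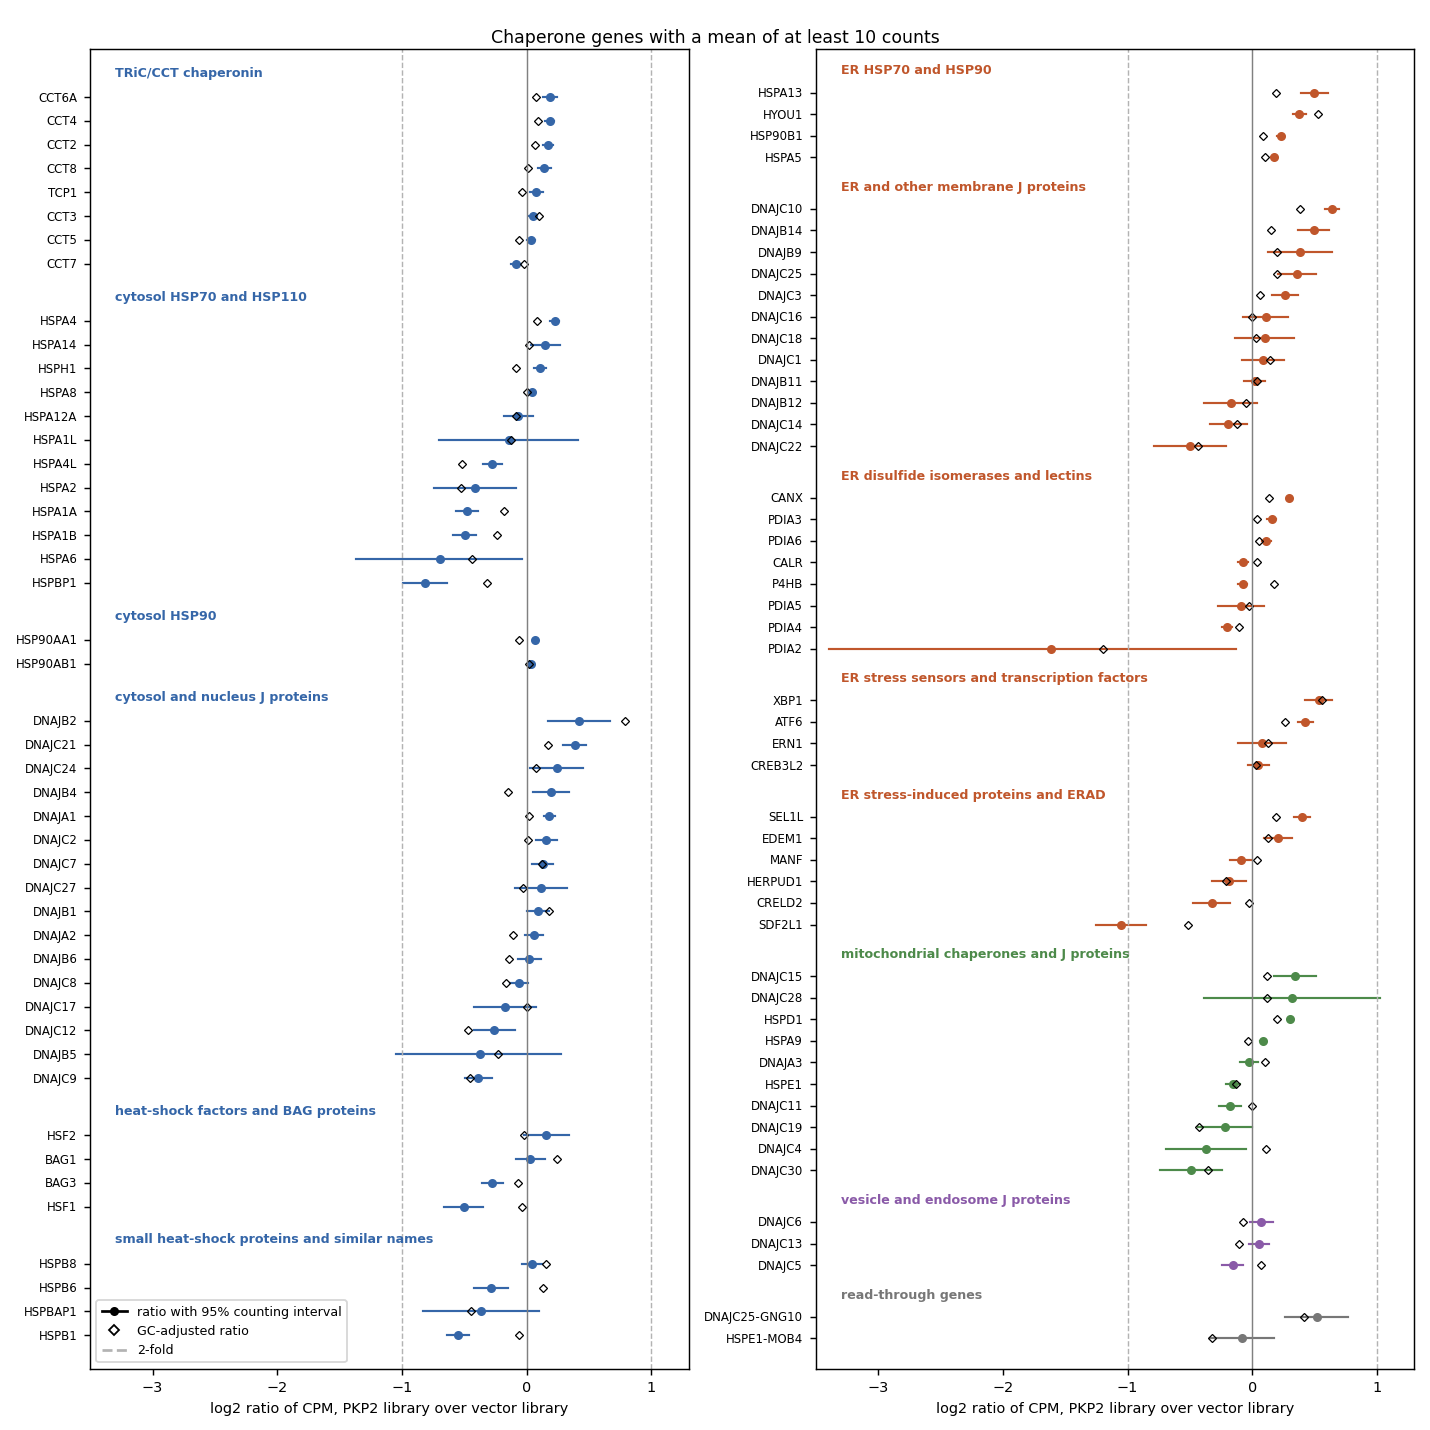
Log2 ratio of CPM, PKP2 library over vector library, of the 95 chaperone genes that averaged 10 counts or more, by class, with cytosol and nucleus on the left and other compartments on the right. Filled circles with bars are ratios with 95% counting intervals, open diamonds are GC-adjusted ratios, and dashed lines mark 2-fold. SDF2L1 and PDIA2 lie beyond the lower dashed line, PDIA2 with the widest bar, and no gene lies beyond the upper one.

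Among the cytosolic HSP70 genes, the constitutive HSPA8 was nearly equal in both libraries and the inducible HSPA1A and HSPA1B were lower in the PKP2 library. HSPA8 (ENSG00000109971), the constitutive HSC70, had 1789 CPM in the PKP2 library, against 1735, a ratio of 0.04 (interval 0.02 to 0.06). The stress-inducible pair HSPA1A (ENSG00000204389) and HSPA1B (ENSG00000204388) had 1637 and 1450 counts in the PKP2 library, against 2684 and 2411 in the vector library, ratios of -0.48 (interval -0.57 to -0.39) and -0.50 (interval -0.59 to -0.40). With 73.6% and 73.1% of their 31-base stretches found elsewhere, these near-copies are better read as a sum, 3087 counts in the PKP2 library, against 5095, a ratio of -0.49 (interval -0.55 to -0.42). GC-adjusted, they were at -0.18 and -0.23. HSPA6, the strictly inducible HSP70B', had only 31 counts in the PKP2 library, against 59, a ratio of -0.69 (interval -1.37 to -0.04), and has 56.7% of its stretches in common with other genes. HSPA2, known from testis, was at -0.41 (130 counts in the PKP2 library, against 204) and -0.53 GC-adjusted.

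The exchange factors of HSP70 also lay on both sides. HSPBP1 (ENSG00000133265), which strips nucleotide from HSP70, had 400 counts in the PKP2 library, against 829 in the vector library, or 19.9 CPM against 34.9. Its ratio was -0.81 (interval -0.99 to -0.64; 1.76-fold lower) and -0.31 GC-adjusted, with 64.6% GC and no shared stretch. Of the HSP110 genes, HSPA4 was at 0.22 (interval 0.19 to 0.26) and HSPH1 at 0.11 (interval 0.06 to 0.16), while HSPA4L had 2264 counts in the PKP2 library, against 3229, a ratio of -0.28 (interval -0.35 to -0.20). HSPA4L has one of the lower GC contents, 38.1%, and lay farther from 0 after the adjustment, at -0.52. HSPA14, the ribosome-associated HSP70L1, was at 0.15 (interval 0.04 to 0.26). After the adjustment 2 of the 12 HSP70 and HSP110 genes and partners were above 0 (48.9% of all genes), and the median was -0.15. The 12 hold the near-copies HSPA1A and HSPA1B as separate genes, and HSPA8, which was at -0.0004.

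HSF1 (ENSG00000185122) itself had 529 counts in the PKP2 library, against 885 in the vector library, or 26.3 CPM against 37.3, a ratio of -0.51 (interval -0.66 to -0.35). With 63.9% GC its adjusted ratio was -0.04. HSF2, a factor of development that pairs with HSF1, was at 0.16 (interval -0.02 to 0.34). BAG3, an HSF1 target that links HSP70 to the small heat-shock proteins, had 1907 counts in the PKP2 library, against 2721, a ratio of -0.28 (interval -0.36 to -0.19) and -0.07 GC-adjusted, and BAG1 was at 0.03 (interval -0.09 to 0.15). HSPB1 (ENSG00000106211), the small heat-shock protein HSP27, had 1759 counts in the PKP2 library, against 3037 in the vector library, a ratio of -0.55 (interval -0.64 to -0.47) and -0.06 GC-adjusted. HSPB6 was at -0.29 and 0.13 GC-adjusted, with 34.8% shared stretches, and HSPB8, the partner of BAG3, at 0.04 (interval -0.04 to 0.12). HSPBAP1, which is named for binding a small heat-shock protein and is no chaperone of this family, was at -0.36 with 66 counts in the PKP2 library, against 100. Genes of the heat-shock response thus had unadjusted ratios on both sides of 0. The inducible HSP90AA1, described below, was at 0.07 and -0.06 GC-adjusted. DNAJB1, the inducible HSP40, was at 0.09 (2021 counts in the PKP2 library, against 2238) and 0.18 GC-adjusted. HSPH1 was at 0.11, but at -0.09 GC-adjusted.

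The 2 cytosolic HSP90 genes were the most abundant chaperones and were nearly equal in both libraries. HSP90AA1 (ENSG00000080824), the inducible alpha form, had 84456 counts in the PKP2 library, against 95017 in the vector library, or 4194 CPM against 4005, a ratio of 0.07 (interval 0.05 to 0.08). HSP90AB1 (ENSG00000096384), the constitutive beta form, had 3970 CPM in the PKP2 library, against 3870, a ratio of 0.04 (interval 0.02 to 0.05). Both have over 20% of their 31-base stretches in common with other genes, HSP90AB1 35.7%. HSP90AA2P alone had 1331 counts in the PKP2 library, against 1836, and summed with it HSP90AA1 was at 0.06.

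The TRiC/CCT chaperonin, a double ring of 8 related subunits that folds actin and tubulin, was an even class. Its 8 measured subunit genes lay between -0.08 (CCT7) and 0.19 (CCT6A and CCT4), 7 of them with intervals wholly above 0, where 46.9% of all genes that averaged 1000 counts or more had one. CCT7 (ENSG00000135624) had 10009 counts in the PKP2 library, against 12504 in the vector library, and CCT4 (ENSG00000115484) had 11060, against 11462. The smallest of the other ratios was that of CCT5, 0.04, which has 33.3% shared stretches. GC-adjusted, the 8 lay between -0.06 and 0.10. CCT6B, a testis subunit, had 8 counts in the PKP2 library, against 7.

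Of the 16 measured J proteins of cytosol and nucleus, 8 had intervals wholly above 0 (25.9% of all genes) and 2 wholly below (28.8% of all genes). Among all genes that averaged 1000 counts or more, 46.9% and 32.0% had such intervals, and the 16 had a median of 1624 counts. Their median ratio was 0.10, and -0.01 GC-adjusted. DNAJB2, a J protein with ubiquitin-binding motifs, had 289 counts in the PKP2 library, against 255 in the vector library, a ratio of 0.42 (interval 0.17 to 0.67). Its transcript has 61.6% GC, and its GC-adjusted ratio of 0.79 was the highest among members above the minimum. DNAJC21, which acts in ribosome biogenesis, was at 0.38 (1908 counts in the PKP2 library, against 1722). The abundant HSP70 partner DNAJA1 was at 0.18 (interval 0.14 to 0.22) with 8074 counts in the PKP2 library, against 8395. DNAJC9, a histone chaperone, had 1128 counts in the PKP2 library, against 1737, a ratio of -0.39 (interval -0.50 to -0.28) and -0.46 GC-adjusted. It overlaps MRPS16 on the same strand, which was at -0.38, and has 32.2% shared stretches. DNAJC12, a partner of the aromatic amino acid hydroxylases, was at -0.26 (interval -0.43 to -0.09) and -0.47 GC-adjusted, and DNAJB5 at -0.38 with only 34 counts in the PKP2 library, against 52.

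The vesicle and endosome J proteins lay close to 0. DNAJC5, the cysteine string protein, was at -0.16 (interval -0.24 to -0.07). DNAJC6, auxilin, which uncoats clathrin, was at 0.07 and DNAJC13, the endosomal RME-8, at 0.06, both with intervals that took in 0.

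In mitochondria the chaperonin pair had ratios of opposite sign, unadjusted and GC-adjusted, but not when adjusted for transcript length. HSPD1 (ENSG00000144381), HSP60, had 43527 counts in the PKP2 library, against 41523 in the vector library, or 2162 CPM against 1750, a ratio of 0.30 (interval 0.29 to 0.32) and 0.20 GC-adjusted. HSPE1 (ENSG00000115541), the HSP10 lid of the same chaperonin, had 4091 counts in the PKP2 library, against 5369, a ratio of -0.16 (interval -0.21 to -0.10) and -0.13 GC-adjusted. Adjusted for transcript length instead, HSPE1, with a transcript of 950 bases, was at 0.0006 and HSPD1 at 0.36. These genes share a promoter region and overlap on opposite strands, and 31.3% and 26.9% of their stretches are found in other genes. HSPD1 summed with its 9 pseudogenes was at 0.30. HSPE1 summed with the read-through gene HSPE1-MOB4 and with MOB4 was at 0.06, but that sum takes in all counts of MOB4, a separate gene. The read-through gene by itself was at -0.08, and HSPE1 was not summed with its own pseudogenes. HSPA9, the mitochondrial HSP70 mortalin, was at 0.09 (interval 0.06 to 0.11). The J proteins ran from DNAJC30 at -0.49 (217 counts in the PKP2 library, against 359) and DNAJC4 at -0.37 (136 counts, against 207) to DNAJC15 at 0.34 (601 counts, against 559), with DNAJC28 at 0.32 on 37 counts in the PKP2 library, against 35.

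Levels can be compared between genes only per length, so counts were also divided by transcript length and scaled to a fixed total (TPM). On this scale chaperones summed to 23847 TPM in the PKP2 library, against 21991 TPM in the vector library. The order by mean TPM of both libraries was led by HSP90AB1, with 3301 TPM in the PKP2 library, against 3124, and HSP90AA1, with 2759 TPM, against 2559. HSPD1 followed, with 1957 TPM in the PKP2 library, against 1539 TPM in the vector library, where it was level with HSPA8 (1614 TPM in the PKP2 library, against 1521). By that mean, the 10 most abundant genes were completed by CANX, HSPA5, CCT3, HSP90B1, CCT7 and CALR, from 1215 TPM (CANX) to 572 TPM (CALR) in the PKP2 library, against 962 and 585 TPM. In the PKP2 library alone HSPA9, with 593 TPM (542 TPM in the vector library), lay above CCT7 and CALR. The inducible HSPA1A had 72.8 TPM in the PKP2 library, against 98.4 TPM. The stress sensor ERN1 had 6.01 TPM in the PKP2 library, against 5.52 TPM.

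**Figure D4:**
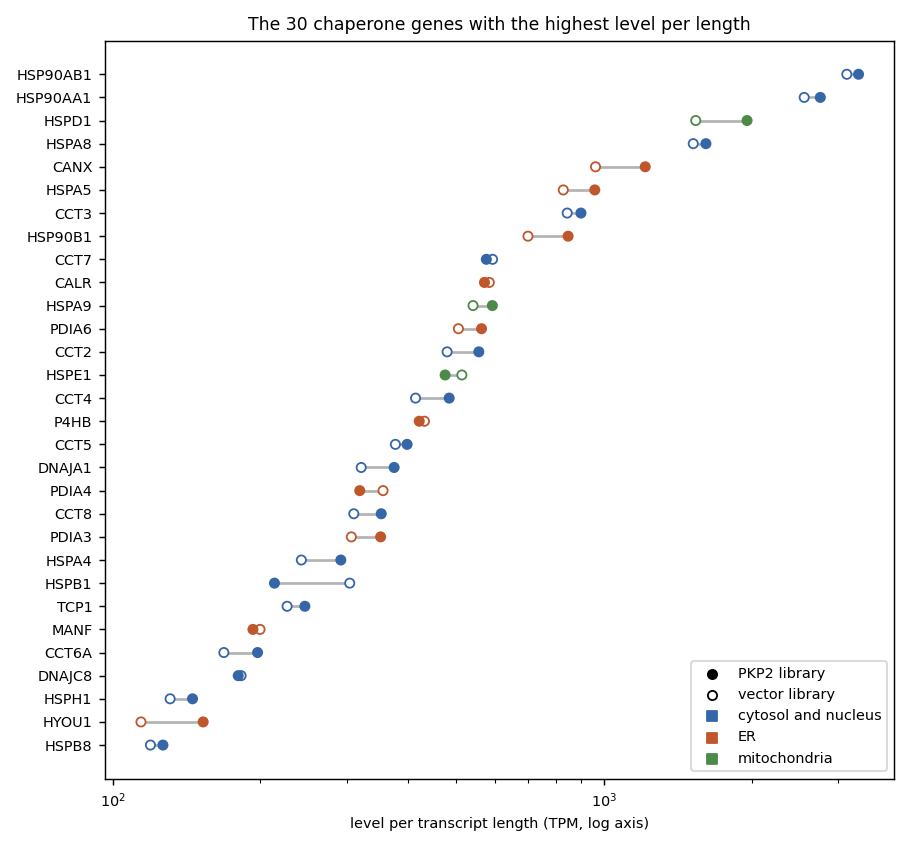
Level per transcript length in TPM (log axis) of the 30 members with the highest mean, with filled circles for the PKP2 library and open circles for the vector library, coloured by compartment. HSP90AB1 and HSP90AA1 lead, with at least 2559 TPM in each library. The gap between circles is widest in favour of the PKP2 library for HYOU1, HSPD1 and CANX, and in favour of the vector library for HSPB1.

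The genes whose promoters were shown above can now be set beside their ratios. Of the 7 members with an ERSE, 5 had ratios above 0 (XBP1, CANX, HSP90B1, HSPA5 and PDIA6), as did 47.3% of all genes. CALR and CRELD2 were below, and the median of the 7 was 0.17. GC-adjusted, 6 were above 0 (48.9% of all genes), from -0.03 (CRELD2) to 0.56 (XBP1), with a median of 0.09. Most members with an ERSE or a 3-unit heat-shock element averaged 1000 counts or more. Among all genes with such counts, 2805 had ratios above 0 and 2040 below, and 2752 and 2090 when GC-adjusted. The 24 other ER members with a promoter in the table had a median of 0.09, and of 0.05 GC-adjusted, with 15 and 16 above 0. Their range held all 7 unadjusted ratios, while GC-adjusted XBP1 lay above their highest value, 0.53 (HYOU1). HYOU1 and DNAJC10, the members with the shorter element, were at 0.38 and 0.64, and at 0.53 and 0.39 GC-adjusted. The 7 members with a 3-unit heat-shock element had a median of 0.04, from HSPA6 (-0.69) to the mitochondrial HSPD1 (0.30). Of these, 6 were above 0 (47.3% of all genes), and 3 when GC-adjusted (48.9% of all genes). The set compared with these holds no mitochondrial member. It is the 36 cytosolic and nuclear members with a promoter in the table and no 3-unit element. These 36 had a median of 0.03, and of -0.05 GC-adjusted. Among them 19 were above 0, and 14 when GC-adjusted. A match is a description of the letters and not of binding.

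Other genes of the same pathways, in lists of 78 genes in all, of which 77 averaged 10 counts or more, held no gene past 2-fold in either direction, where 2.47% of all genes were higher and 4.61% lower. Past 1.5-fold, 3 were lower (TRIB3, SYVN1 and DERL3; 12.9% of all genes) and none higher (6.87% of all genes). Their median ratio was 0.06, and 0.03 GC-adjusted, and their median count was 1624, against 428.5 for all genes. Of 16 co-chaperones of HSP90 and HSP70 (median 0.09), 8 had intervals wholly above 0 and 6 wholly below (25.9% and 28.8% of all genes). Among all genes that averaged 1000 counts or more, 46.9% and 32.0% had such intervals, and the 16 had a median of 2222 counts. They ran from STUB1, the ubiquitin ligase CHIP, at -0.52 (0.01 GC-adjusted, with 36.2% shared stretches) to the immunophilin gene FKBP5 at 0.29. The prefoldin genes, whose complex hands actin and tubulin to TRiC, ran from PFDN5 (-0.04) to PFDN4 (0.32). Of their 6 intervals, 3 were wholly above 0 (25.9% of all genes, 46.9% of those that averaged 1000 counts or more). None was wholly below (28.8% and 32.0%). The 20 other ER folding enzymes (median 0.08) ran from SDF2, the constitutive relative of SDF2L1, at -0.39 (278 counts in the PKP2 library, against 428) to the prolyl isomerase gene FKBP14 at 0.51.

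The 17 other genes of ERAD and the translocon (median 0.03) ran from DERL3, at -0.66 on only 14 counts in the PKP2 library, against 26 and with 70.9% shared stretches, to SEC62 at 0.40. SYVN1, the ligase HRD1 that SEL1L holds, was named after its value was seen. It had 525 counts in the PKP2 library, against 972, a ratio of -0.65 (interval -0.81 to -0.50) and -0.38 GC-adjusted, on the other side of 0 from SEL1L, and it overlaps FAU on the same strand. Among 9 other genes of the unfolded protein response (median 0.03), the pseudokinase gene TRIB3 was lowest at -0.99 (888 counts in the PKP2 library, against 2074) and -0.65 GC-adjusted, and MBTPS2, the protease that cuts ATF6, highest at 0.50 (3828 counts, against 3184). MBTPS2 overlaps YY2 on the same strand. ATF6B, the paralog of ATF6, was below 0 at -0.36 (interval -0.49 to -0.22) and -0.13 GC-adjusted, and overlaps TNXB on the same strand. ATF4, the factor of the PERK branch, was at -0.26 (interval -0.30 to -0.22) and -0.06 GC-adjusted, with 29.7% shared stretches. EIF2AK3, which encodes PERK itself, was at 0.23 (interval 0.09 to 0.38). These 3 were named after their values were seen. The 9 other mitochondrial chaperones and proteases had a median of -0.30, and of -0.07 GC-adjusted. They ran from TIMM44 (-0.39) to the iron-sulfur J protein gene HSCB (0.49), which has 35.6% shared stretches. CREB3L1, under the minimum, had 6 counts in the PKP2 library, against 2.

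The 7 members under the minimum had at most 9 counts in either library. HSPB3 had 1 count in the PKP2 library, against 8, DNAJC5G 3, against 9, HSPB2 2, against 1, HSPA12B 2, against 3, and DNAJA4 4, against 5, with CCT6B as given above. The read-through gene HSPB2-C11orf52 had 0 counts in the PKP2 library, against 7 in the vector library, at most 0.149 CPM by a floor of 3 counts in that library, against 0.295 CPM. All of these intervals but the last took in 0. The read-through genes HSPE1-MOB4 (-0.08) and DNAJC25-GNG10 (0.52) have 96.9% and 96.2% of their stretches in common with other genes, and DNAJC25 summed with DNAJC25-GNG10 and GNG10 was at 0.28. Pseudogenes of chaperones, which the choice by gene type left out, numbered 52 and held 3770 counts in the PKP2 library, against 4752. The 22 of them that averaged 10 counts or more had a median ratio of -0.23.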

How the data were processed

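Libraries were prepared from H460 total RNA by an Illumina TruSeq protocol, per the labels. Bowtie 0.12.2 and the builds GRCh37 and hg19 are named, per the submitters' processing notes; for the counting program, its annotation and its use of strand, the sources used here give nothing. The deposited values are counts per gene, not normalized, per the file headers, and are classed as estimated counts only because 1 damaged row holds a decimal; none was rounded. That row and a gene ID without a value, 2 per file, were left out. They hold no readable count, so their share cannot be given.

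Library sizes were the totals times edgeR's TMM factors (0.991 for PKP2 and 1.01 for vector; edgeR 4.0.16, R 4.3.3). With 1 library per group no count model was fitted and no p-value computed. Log2 ratios used no pseudocount, and intervals were exact binomial (Clopper-Pearson, 95%), covering counting error only, since without molecular identifiers reads are not independent molecules. Genes at 0 were set against 3 counts. Symbols came from a table of gene names that matched 22579 IDs. Gene type, transcript length, GC content, exon overlaps and shared 31-base stretches came from GENCODE release 29, by gene ID only, since its build differs from that of the notes. The principal transcript was used, otherwise the longest. The GC trend was fitted by lowess in statsmodels 0.14.6, with a fraction of 0.3, to genes averaging 100 counts or more. Ratios, intervals and the adjustment were tested on simulated data. Promoters, from RefSeq, carry coordinates of GRCh38.p14. Protein sequences were not used here.

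The members, classes, lists, motifs and rules were chosen with earlier results of these data known. Fully described genes were those past 2-fold, the 2 highest and 2 lowest ratios of a class, the stress sensors and factors, the 10 with the highest level, and the extremes of each list; others were named by role.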

Additional observations from a re-analysis of the deposited data

How the results depend on the processing

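No paired analysis was possible because each group has 1 library. The count of members at least 2-fold lower, 2 as reported, was 1 with 1 CPM added, 0 with 5 CPM added, 1 with a mean of at least 50 counts, 1 after adjustment for GC content (PDIA2) and 1 after adjustment for transcript length. It was 4 with no filter on counts, 4 at 1.5-fold and 1 at 3-fold. Members at least 2-fold higher numbered 0 as reported, 1 with no filter (HSPB2, 2 counts in the PKP2 library, against 1) and 1 at 1.5-fold. Over the other scalings (library totals, DESeq2 1.42.0 size factors, upper quartile) and a limit of 20% shared sequence these counts were as reported. Over all settings the median ratio ran from 0.06 to 0.12 for ER members, -0.03 to 0.07 for cytosolic and nuclear members and -0.16 to 0.05 for mitochondrial members. Adjusting for GC content moved 62 of 95 single ratios outside their counting intervals and turned the sign of 22; adjusting for length did so for 29 and 10. Counting error limits most the ratios of genes under 100 counts.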
